A study of Homo sapiens with 21 samples.

Results

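The nuclear genes that encode the proteins of the mitochondrial ribosome (the MRPL and MRPS genes) were followed through 7 treatment groups of a breast cancer cell line. Members were chosen by their NCBI symbol alone, as MRPL or MRPS followed by a number and at most one letter from A to C, with pseudogenes dropped. The count table held 77 such genes of 28395 listed, 49 named MRPL and 28 named MRPS. By their place in the ribosome 51 belong to the large subunit, including MRPS30 and MRPS18A despite their symbols, and 26 to the small subunit. 46 encode proteins with a counterpart in bacterial ribosomes, and 31 encode proteins found only in mitochondria.

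Mitochondria carry their own ribosome, which translates the few mRNAs encoded by mitochondrial DNA into subunits of the respiratory chain. Its rRNAs are transcribed inside the organelle, whereas every one of its proteins is encoded in the nucleus, made in the cytosol and imported. Its assembly therefore draws on RNA polymerase II transcription in the nucleus and on transcription of the mitochondrial genome by a separate polymerase.

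All values come from a single human line, Hs578T, derived from a triple-negative breast cancer (TNBC) and labelled as wild type. CDK12 and CDK13, the kinases inhibited by THZ531, phosphorylate RNA polymerase II during elongation, and the other drugs, lapatinib and nilotinib, inhibit tyrosine kinases. The cells were taken at 8 h of exposure to DMSO, THZ531 at 0.1 µM, lapatinib at 3.16 µM, nilotinib at 1 µM, 0.1 µM THZ531 with 3.16 µM lapatinib, 0.1 µM THZ531 with 1 µM nilotinib, or THZ531 at 1 µM. Each group held 3 replicates, which gave 21 unstranded libraries of polyA-selected RNA, and every treatment was compared with the same 3 DMSO libraries. The study describes its RNA samples as coming from independent experiments, and the labels number them without saying which libraries share one.

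The libraries held 97612207 to 112229052 counts. In bulk RNA of this kind, fewer cells of a type and less RNA per cell cannot be told apart. The mesenchymal markers VIM, FN1, CD44 and ZEB1 lay between 185 and 10100 CPM (counts scaled to the size of the library and corrected by TMM), while the epithelial and luminal markers EPCAM, CDH1 and ESR1 did not exceed 0.502 CPM in any library. ERBB2 reached 42 CPM and GATA3 reached 21 CPM. The share of counts on the 13 mRNAs encoded by mitochondrial DNA was 1.25% ± 0.0896 (SD, n = 3) with DMSO and 1.6% ± 0.139, 1.56% ± 0.114 and 1.53% ± 0.219 in the lapatinib combination, the nilotinib combination and 1 µM THZ531. Its part in the results on the members was not tested beyond the rescaling given with them.

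76 members passed the filter on low counts. MRPS18B, one of 3 genes named for their relation to bacterial protein S18, did not pass, with 0 to 2 counts in every library. It lies on chromosome 6 (GRCh38.p14), and of the 11 other protein-coding genes within 100 kb of it 7 had a median of 0 counts, with a highest median of 46 counts, whereas the median tested member had 5022 counts. MRPL45, a protein of the peptide exit tunnel that lies against the inner membrane, passed the filter with 1 to 24 counts in 20 libraries and 244 counts in replicate 2 of 1 µM THZ531. Its pseudogene MRPL45P2 had 45 to 78 counts in all libraries. How reads that align to several places were counted is not given in the sources used here, so that the near-absent counts of MRPS18B and MRPL45 are not a measure of how strongly these genes are expressed. MRPS24, a protein of the small subunit head, had 64 to 144 counts, and 90.9% of its exon bases were shared with the readthrough gene URGCP-MRPS24. The other 74 tested members each had at least 218 counts in every library.

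At rest, in the DMSO libraries, 74 of the 76 tested members exceeded 10 CPM, with a median of 45 CPM. To compare genes, the level was divided by the length of the canonical transcript. On this scale of CPM per kilobase, MRPL37 was highest at 140, followed by MRPL3, a protein of the peptidyl transferase region, at 133 and by MRPL51 at 110. MRPS25 at 3.11, MRPS24 at 1.54 and MRPL45 at 0.0779 had the lowest values, the last with the limit on its counts already given. The transcript annotated for MRPS25 is 4572 bases long and shares 44.1% of its exon bases with other genes. How reads in such overlaps were counted is not given, and the part of length or overlap in its low value was not tested.

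With the single agents few members were called, as were few of all tested genes. With 0.1 µM THZ531, 0 members rose and 1 fell, against 1.78% and 4.31% of all 16036 tested genes. The one that fell was MRPS27, a pentatricopeptide repeat protein of the small subunit. It was at 89.2, 86.9 and 87.1 CPM with DMSO and at 78, 75.3 and 76.3 CPM with 0.1 µM THZ531, so that the groups did not overlap. Its log2 FC was -0.20 ± 0.06 (SE), with an edgeR adjusted p = 0.0468, and the call was lost when any 1 of 15 of the 21 libraries was left out. The members' median log2 FC was 0.087, against 0.009 for all tested genes, and 9 members were higher and 2 lower at an unadjusted p under 0.05. The log2 FC was above 0 in 61 of the 76 members, against 8267 of the 16036 tested genes. DESeq2's Wald test called 1 member higher, and edgeR fitted on only the groups compared called more, as given in the last section.

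With lapatinib alone 0 members were called by edgeR in either direction, against 0.256% of tested genes higher and 0.0561% lower, and 0 were higher and 1 lower at an unadjusted p under 0.05. DESeq2's Wald test called 1 member lower with lapatinib. That with the smallest p in edgeR was MRPS24, at 1.02, 0.975 and 1.08 CPM with DMSO and 0.782, 0.659 and 0.59 CPM with lapatinib, a log2 FC of -0.60 ± 0.14 and an edgeR adjusted p = 0.0957. With nilotinib alone edgeR and DESeq2 each called 0 members in either direction, against 0.243% of genes higher and 0.0998% lower, and 1 was higher and 0 lower at an unadjusted p under 0.05 in edgeR.

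Both combinations and the high THZ531 dose moved members of the family in both directions. In the lapatinib combination 26 members rose and 25 fell, against 34.3% and 37.8% of all tested genes, while scaling to the mRNAs of mitochondrial DNA left 0 higher and 54 lower, against 5.3% and 58.4% of all genes. In the nilotinib combination 28 rose and 23 fell, against 33.7% and 37.3% of all genes, and that scaling left 0 and 48, against 4.83% and 55.9%. With 1 µM THZ531, 25 rose and 35 fell, against 33.1% and 36.8%, and that scaling left 1 and 51, against 4.35% and 52.5%. Members called made up 34.2% and 32.9% of the tested family in the lapatinib combination, 36.8% and 30.3% in the nilotinib combination, and 32.9% and 46.1% at 1 µM THZ531, the first value of each pair being the rises. With TMM the share that rose was thus close to the background in all 3 treatments, and the share that fell lay under it in both combinations and above it at 1 µM THZ531. This order turned with the scaling. By library size alone 41 and 42 of the 76 members fell in the combinations, against 48.4% and 47.1% of all genes, and 10 rose at 1 µM THZ531, against 21%. The share that fell in the combinations also lay above that of all genes by the mitochondrial scaling. By upper-quartile scaling 32 of the 76 members rose and 23 fell at 1 µM THZ531, against 41.4% and 30.5% of all genes. Both shares were then close to the background, so that the excess of falls at this dose was not seen under this scaling. It was seen under the others. Of the 76 members 33 fell with DESeq2's size factors (RLE), against 35.7% of all genes, and 46 by library size alone, against 45.6%. Centring on the median of all tested genes left 34, against 36.5%, and the mitochondrial scaling the 51 already given, against 52.5%.

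The sizes of the changes were smaller than those of genes at large. The quartiles of the members lay at log2 FC -0.38 and 0.41 in the lapatinib combination, against -0.87 and 0.57 for all tested genes. They lay at -0.41 and 0.40 in the nilotinib combination and at -0.55 and 0.32 at 1 µM THZ531, against -0.86 and 0.54 and -0.79 and 0.52 for all genes. Falls beyond a log2 FC of -1 numbered 5, 6 and 7 members in the 3 treatments, against 21.3%, 20.8% and 18.9% of all genes. Rises beyond 1 numbered 0, 0 and 1, against 7.9%, 6.54% and 5.77%, and the single member was MRPL45 at 1 µM THZ531.

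**Figure D1:**
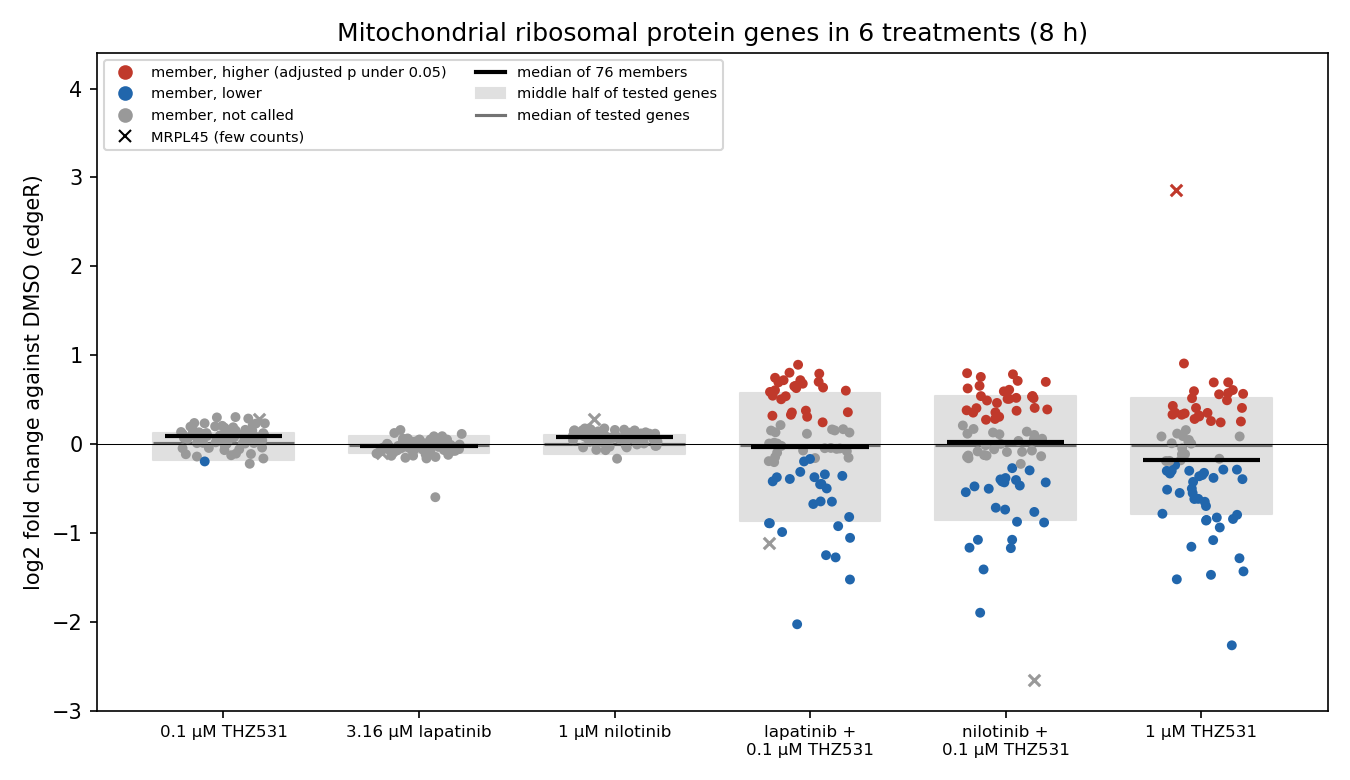
The plot shows the log2 fold change against DMSO (vertical axis) of each of the 76 tested members in each of the 6 treatments (horizontal axis). Red points are members higher and blue points members lower at an adjusted p under 0.05, grey points are not called, the black bar is the members' median, the grey box and line are the interquartile range and median of all 16036 tested genes, and the cross is MRPL45. With each single agent the points lie between -0.60 and 0.30, and in the last 3 treatments, scaled by TMM (scaling to the mitochondrial mRNAs leaves 0, 0 and 1 of the rises called), they spread to both sides, from -2.27 for MRPS31 at 1 µM THZ531 to 0.91 for MRPL23 at the same dose, apart from MRPL45.

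The median log2 FC of the members was -0.03 in the lapatinib combination, 0.02 in the nilotinib combination and -0.18 at 1 µM THZ531. That of all tested genes was -0.01 in each. These medians move with the scaling: by library size alone all genes had medians of -0.34, -0.32 and -0.27, and by the mRNAs of mitochondrial DNA -0.69, -0.63 and -0.55. Relative to the median of all genes the members stayed at -0.02, 0.03 and -0.17 under TMM and at -0.03, 0.04 and -0.16 under scaling to the mitochondrial mRNAs. Summed over members, the level was 3898 ± 185 CPM with DMSO, 4179 ± 386 and 4178 ± 394 in the combinations and 3836 ± 260 at 1 µM THZ531 (SD, n = 3 each), differences smaller than their spread. As a plain share of all counts, with no TMM scaling, the family made up 0.428% ± 0.0209 with DMSO and 0.365% ± 0.0321, 0.372% ± 0.0333 and 0.352% ± 0.0228 in these 3 treatments.

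The deepest falls were in genes for a few proteins of both subunits. MRPS31, a small-subunit protein found only in mitochondria, was at 13.8, 11.9 and 13.2 CPM in the DMSO libraries. It was at 3.16, 3.1 and 3.26 CPM in the lapatinib combination, at 3.74, 3.05 and 3.63 CPM in the nilotinib combination and at 3.19, 2.28 and 2.6 CPM with 1 µM THZ531. All 9 libraries of these treatments thus lay below all DMSO libraries and below those of the single agents, of which the lowest was 10.1 CPM with 0.1 µM THZ531. The log2 FC was -2.03 ± 0.11, -1.90 ± 0.11 and -2.27 ± 0.11, with edgeR adjusted p = 1.75e-12, 4.66e-12 and 8.85e-13. The related pseudogene MRPS31P5, which can share reads with it, had 137 to 153 counts with DMSO and 44 to 77, 51 to 65 and 68 to 102 counts in the same 3 treatments.

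MRPL16, the uL16 protein near the peptidyl transferase centre of the large subunit, was at 22.7, 19.9 and 22.1 CPM with DMSO. It fell to 9.06, 8.62 and 9.01 CPM in the lapatinib combination, 9.52, 10 and 9.13 CPM in the nilotinib combination and 7.39, 7.38 and 8.51 CPM with 1 µM THZ531. The single agents lay between 19.9 and 23.2 CPM. None of the libraries of the 3 treatments overlapped with these or with DMSO, and the log2 FC was -1.28 ± 0.07, -1.17 ± 0.07 and -1.47 ± 0.08 (edgeR adjusted p = 7.32e-12, 2.78e-11 and 1.85e-12). MRPL36, the small zinc-binding bL36 protein, was at 39.1, 38.3 and 40.5 CPM with DMSO and at 18.9, 15.3 and 15.4, at 19.8, 17.1 and 15.6, and at 12.6, 12.3 and 16.1 CPM in the same order of treatments. Its log2 FC was -1.25 ± 0.11, -1.17 ± 0.11 and -1.52 ± 0.11 (edgeR adjusted p = 3.69e-09, 1.06e-08 and 3.17e-10), again without overlap.

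MRPL49 fell further in both combinations than at 1 µM THZ531. This large-subunit protein, found only in mitochondria, was at 64.7, 62.8 and 66.3 CPM with DMSO, at 23.3, 21.5 and 22.5 CPM in the lapatinib combination and at 26.4, 25.3 and 21.2 CPM in the nilotinib combination. With 1 µM THZ531 it was at 31.3, 44.5 and 36.7 CPM, between DMSO and both combinations and overlapping with neither, and the single agents lay between 58.1 and 72 CPM. The log2 FC against DMSO was -1.53 ± 0.11 and -1.41 ± 0.10 in the combinations and -0.79 ± 0.10 at 1 µM THZ531 (edgeR adjusted p = 8.61e-11, 2.85e-10 and 1.22e-06), and 9.7% of its exon bases overlap SYVN1. The means of MRPS10, named here after its values were seen, had the same order. They were 66.2 CPM with DMSO, 42.3 and 46.7 CPM in the combinations and 53.7 CPM at 1 µM THZ531. MRPS27, the member called at 0.1 µM THZ531, was at 44, 42.5 and 40.1 CPM, 51.5, 45.1 and 46.8 CPM, and 47.1, 50.2 and 47.5 CPM in these treatments, a log2 FC of -1.06 ± 0.06, -0.88 ± 0.06 and -0.86 ± 0.06 (edgeR adjusted p = 2.71e-12, 4.86e-11 and 8.63e-11). In both combinations and at 1 µM THZ531 the falls of MRPS31, MRPL16, MRPL36, MRPL49 and MRPS27 kept their direction and their call under every scaling tried.

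Rises were smaller. MRPL21, the bL21 protein of the large subunit, was at 36.7, 37.1 and 38.4 CPM with DMSO, at 78, 64.1 and 66.2 CPM in the lapatinib combination, at 73, 63.8 and 56.6 CPM in the nilotinib combination and at 49.6, 56.5 and 59.8 CPM with 1 µM THZ531. Every library of the 3 treatments lay above DMSO and above the single agents, which ranged from 32.7 to 46.8 CPM, with a log2 FC of 0.89 ± 0.10, 0.78 ± 0.10 and 0.56 ± 0.10 (edgeR adjusted p = 1.66e-07, 1.02e-06 and 6.08e-05). Scaled to the mRNAs of mitochondrial DNA it stayed above 0 but was no longer called, with a log2 FC of 0.21, 0.17 and 0.03.

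MRPL24, the uL24 protein of the large subunit, was at 69.8, 66 and 72.1 CPM with DMSO and at 140, 108 and 114, at 133, 116 and 102, and at 99.6, 120 and 117 CPM in the lapatinib combination, the nilotinib combination and 1 µM THZ531. Its log2 FC was 0.80 ± 0.11, 0.75 ± 0.11 and 0.69 ± 0.11 (edgeR adjusted p = 1.68e-06, 3.95e-06 and 1.21e-05), which the mitochondrial scaling lowered to 0.12, 0.14 and 0.16, not called. MRPL33, the bL33 protein, was at 25, 22.7 and 27.6 CPM with DMSO and at 46.6, 42.5 and 41, at 46.1, 42.2 and 34.7, and at 36.7, 41.7 and 43.3 CPM. The log2 FC was 0.79 ± 0.10, 0.71 ± 0.10 and 0.69 ± 0.10 (edgeR adjusted p = 7.34e-07, 3.22e-06 and 4.79e-06), and 0.11, 0.09 and 0.16, not called, under that scaling. Neither gene's treated libraries overlapped with DMSO.

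MRPL23, the uL23 protein at the tunnel exit, had the largest rise at 1 µM THZ531 apart from the sparsely counted MRPL45. It was at 19.8, 17.5 and 18.9 CPM with DMSO, at 33.8, 27 and 30.6 and at 33.1, 33.6 and 31 CPM in the combinations, and at 26.2, 33.3 and 45.9 CPM with 1 µM THZ531, where the libraries spread widely but stayed above DMSO. The log2 FC was 0.70 ± 0.15, 0.80 ± 0.15 and 0.91 ± 0.15 (edgeR adjusted p = 0.000259, 6.85e-05 and 1.7e-05), and 0.01, 0.17 and 0.39, not called, under the mitochondrial scaling. The annotated span of MRPL23 holds 5 other RefSeq genes, H19 among them.

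**Figure D2:**
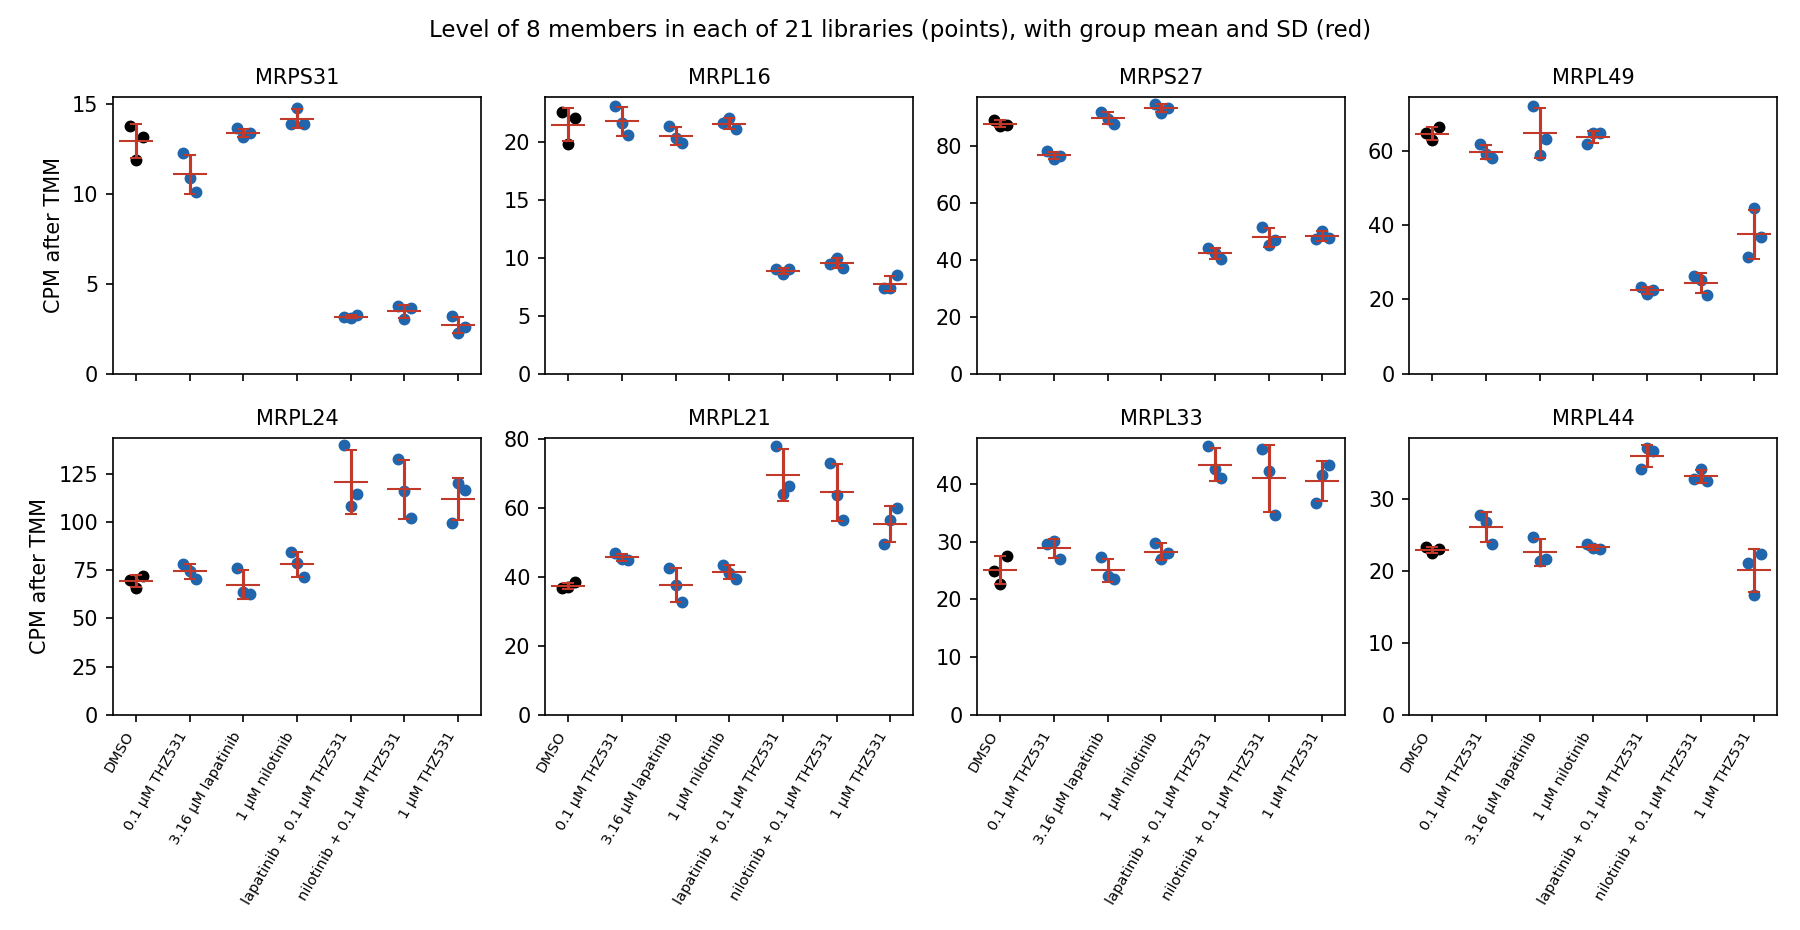
Each panel shows 1 member, with the level in CPM after TMM scaling (vertical axis, from 0) in the 21 libraries (points) of the 7 groups (horizontal axis) and the group mean and SD in red. MRPS31, MRPL16, MRPS27 and MRPL49 lie lower in both combinations and at 1 µM THZ531, MRPL24, MRPL21 and MRPL33 lie higher in all 3 (not called when scaled to the mitochondrial mRNAs), and MRPL44 lies higher in the combinations only, at 32.6 to 37 CPM against 16.7 to 22.4 CPM at 1 µM THZ531.

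The promoters of the members share short sequence elements. RefSeq promoter windows (GRCh38.p14), from 250 bases before to 50 bases after the annotated start, were at hand for 69 of the 77 members, and none for MRPS28, MRPL23, MRPL2, MRPL10, MRPL15, MRPL21, MRPL35 and MRPL13. The first window listed for each gene was searched on both strands for CCGGAAG, a core bound by ETS family factors, AAGATGG, the core of YY1 sites, GCATGCG, a core of NRF1 sites, and CACGTG, the E-box. The ETS core was in 29 windows (42% of members, against 10.7% of all 27305 promoters), the YY1 core in 23 (33.3% against 6.06%), the NRF1 core in 7 (10.1% against 4.13%) and the E-box in 6 (8.7% against 7.43%). Among promoters of tested genes only, the shares were 17.6%, 7.21%, 6.18% and 9.63%. The ETS core ends and the YY1 core begins with AAG, so that their matches can overlap by these letters, and a match is a description of the sequence and not a site shown to be bound.

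Of the members called higher in the lapatinib combination 22 had a window, and 11 of these held the ETS core and 6 the YY1 core. Of those called lower 21 had a window, of which 10 held the ETS core and 10 the YY1 core. Both directions of change thus included promoters with either core. To show such windows, the 150 bases before the start are given for 1 member that rose, MRPL33, and for MRPS31 and MRPL16, which fell, written 5′ to 3′ on the strand of the gene with the ETS core in capitals. They were chosen from the named members as those of which fewer than 30 bases lie in an annotated exon. They are at chr2:27771569-27771718 (plus strand), chr13:40771191-40771340 (minus strand) and chr11:59810779-59810928 (minus strand). The core begins at position -8 from the start in MRPL33 and at position -32 in MRPS31. In MRPL16 it begins on the other strand at position -6 and runs past the start, so that it is not in capitals.
MRPL33: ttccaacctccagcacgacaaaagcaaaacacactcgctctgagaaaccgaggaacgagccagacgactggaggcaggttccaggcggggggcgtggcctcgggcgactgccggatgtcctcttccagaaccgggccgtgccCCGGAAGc
MRPS31: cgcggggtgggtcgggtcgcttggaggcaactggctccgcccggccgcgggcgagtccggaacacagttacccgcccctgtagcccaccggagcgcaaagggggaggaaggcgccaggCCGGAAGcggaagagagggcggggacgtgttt
MRPL16: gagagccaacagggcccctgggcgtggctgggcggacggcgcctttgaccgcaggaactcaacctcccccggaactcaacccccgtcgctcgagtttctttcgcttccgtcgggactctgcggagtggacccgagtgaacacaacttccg

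Among the other members with a known role, MRPL10 and MRPL12 fell, proteins of the stalk that brings translation factors to the ribosome. Other members in or near the stalk were not followed as a set, so that this does not describe the stalk as a whole. MRPL10 was at 35.9, 37.1 and 38.6 CPM with DMSO and at 17.4, 19.3 and 19.4, at 17.6, 18.1 and 17.1, and at 15.6, 13.7 and 16.4 CPM in the lapatinib combination, the nilotinib combination and 1 µM THZ531, a log2 FC of -0.99, -1.08 and -1.29 (SE 0.08, edgeR adjusted p = 4.23e-10, 1.32e-10 and 1.52e-11). MRPL12, which also binds the mitochondrial RNA polymerase, moved less, from 71.3, 72.7 and 77.5 CPM to 41.7 to 53, 48.1 to 64.8 and 46.9 to 64.6 CPM. Its log2 FC was -0.68, -0.42 and -0.40 (SE 0.11, edgeR adjusted p = 2.28e-05, 0.00246 and 0.0041), 69.5% of its exon bases overlap another annotated gene, and by upper-quartile scaling the fall at 1 µM THZ531 was not called (-0.19).

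The other genes named for bacterial S18 moved apart. MRPS18A, the one in the large subunit, was at 23.3, 25.5 and 24.8 CPM with DMSO and at 15.4, 12.4 and 11.8, at 16.4, 14.2 and 12.7, and at 13, 14 and 13.9 CPM in the same treatments. Its log2 FC was -0.89, -0.77 and -0.84 (SE 0.10, edgeR adjusted p = 6.7e-08, 5.91e-07 and 1.75e-07), with 60.6% of its exon bases shared with RSPH9. MRPS18C, in the small subunit, was at 10.1, 9.82 and 10.4 CPM with DMSO and overlapped with it in both combinations, with a log2 FC of -0.06 and -0.15 (edgeR adjusted p = 0.634 and 0.203). At 1 µM THZ531 it was at 7.26, 9.16 and 9.24 CPM, a log2 FC of -0.24 with an edgeR adjusted p = 0.0439, a call lost under every alternative tested except library size alone, scaling to the mitochondrial mRNAs and the replicate block, and on leaving out any 1 of 9 libraries, without replicate 1 of 1 µM THZ531 most of all (-0.13, adjusted p = 0.253). 83.6% of its exon bases overlap ABRAXAS1.

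In the decoding region of the small subunit, MRPS12 fell, with a log2 FC of -0.38, -0.43 and -0.62 (SE 0.09, edgeR adjusted p = 0.000979, 0.000264 and 4.85e-06). Of the members with the highest levels, MRPL51 rose from 98.7, 93.3 and 104 CPM to 146 to 170, 122 to 158 and 117 to 138 CPM, a log2 FC of 0.66, 0.51 and 0.41 (SE 0.10, edgeR adjusted p = 4.75e-06, 0.0001 and 0.000947), although the mitochondrial scaling left no rise of any member called in the combinations. MRPL3 overlapped with DMSO in all 3 treatments, with a log2 FC of 0.13, 0.21 and 0.09 (SE 0.09, edgeR adjusted p = 0.221, 0.0569 and 0.415). MRPL37 had a log2 FC of 0.21, 0.27 and 0.16 (SE 0.09, edgeR adjusted p = 0.0511, 0.015 and 0.149), and its 1 call, in the nilotinib combination, was lost without replicate 1 of that group (0.18, adjusted p = 0.113) and turned to -0.03 by library size alone and -0.34 by the mitochondrial mRNAs.

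MRPS25 overlapped with DMSO in both combinations, at 0.00 in each, and had a log2 FC of -0.19 at 1 µM THZ531 (SE 0.09, edgeR adjusted p = 0.0654). MRPS24 had a log2 FC of 0.50, 0.40 and 0.35 (SE 0.14, edgeR adjusted p = 0.0028, 0.0134 and 0.0298), with 111 to 144 counts in the 9 libraries. MRPL45 had a log2 FC of -1.12 and -2.66 in the combinations, not called, and of 2.86 ± 0.92 at 1 µM THZ531 (edgeR adjusted p = 0.00963). That call rested on 1 library, and without replicate 2 of that group the value was -1.32 with an edgeR adjusted p = 0.0541.

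By subunit, 19 of 51 large-subunit members rose and 15 fell in the lapatinib combination, 21 and 14 in the nilotinib combination and 19 and 21 at 1 µM THZ531. Of 25 tested small-subunit members 7, 7 and 6 rose and 10, 9 and 14 fell in the same treatments. Rises made up 37.3%, 41.2% and 37.3% of the large and 28%, 28% and 24% of the small subunit. Of all tested genes 34.3%, 33.7% and 33.1% rose. Falls made up 29.4%, 27.5% and 41.2% of the large and 40%, 36% and 56% of the small subunit, against 37.8%, 37.3% and 36.8% of all genes. The median log2 FC of the small subunit at 1 µM THZ531 was -0.29, that of the large subunit 0.00, and the difference between the subunits was not tested. Members with a bacterial counterpart had medians of -0.02, 0.01 and -0.12, and members found only in mitochondria medians of -0.04, 0.03 and -0.19. Of the 44 tested members that overlap no other RefSeq gene 15, 15 and 14 rose and 17, 16 and 23 fell. These rises made up 34.1%, 34.1% and 31.8% and the falls 38.6%, 36.4% and 52.3%, all but the last close to the shares of all genes. Both directions were thus present among members without an annotated overlapping RefSeq gene. Some of these, MRPL12 and MRPS5 among them, still share exon bases with another GENCODE gene.

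The rest of the pathway was taken from 5 lists of 80 genes and from the mRNAs that the ribosome translates. With the single agents 3 of the 80 rose and 5 fell at 0.1 µM THZ531, against 1.78% and 4.31% of all tested genes. With lapatinib 1 rose, against 0.256%. In the lapatinib combination, the nilotinib combination and 1 µM THZ531, 34.3%, 33.7% and 33.1% of all tested genes rose and 37.8%, 37.3% and 36.8% fell. Of 26 genes for mitoribosome assembly and rRNA modification, 20, 20 and 21 fell and 4 rose in each of the 3 treatments, with medians of -0.82, -0.80 and -0.89. The rRNA methyltransferases MRM2 (-1.71, -1.77 and -1.61) and NSUN4 (-1.64 and -1.71 in the combinations) fell, while NGRN (0.54, 0.49 and 0.46) and C1QBP (0.50, 0.55 and 0.40) rose. Of 22 mitochondrial aminoacyl-tRNA synthetase and amidotransferase genes 12, 12 and 13 fell, led by PARS2 at -3.61, -3.67 and -3.27, and 5, 5 and 6 rose. These log2 FCs each passed the edgeR threshold, and the rises in these lists were lost under scaling to the mitochondrial mRNAs, where 0 of the 80 genes were higher in any of the 3 treatments.

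Of 15 translation factors 8 fell in each treatment and 5 rose. The 33.3% that rose was close to the share of all genes in each treatment, and the 53.3% that fell lay above it. The release factor paralogue MTRFR fell by 3.27, 3.26 and 2.47 on the log2 scale, whereas the elongation factor TUFM rose by 0.64, 0.60 and 0.56. Of 12 genes for transcription and replication of mitochondrial DNA 8, 8 and 9 fell and 2 rose, with TEFM, an elongation factor of the mitochondrial RNA polymerase, at -2.08, -2.08 and -2.05 and SSBP1, which binds single-stranded mitochondrial DNA, at 0.88, 0.56 and 0.59. Of the 5 mitoribosomal proteins that carry other symbols 3 rose and 1 fell in each treatment, PTCD3 being the one that fell, at -0.84, -0.61 and -0.34.

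With TMM the mRNAs encoded by mitochondrial DNA rose in 13 of 13 cases in each of the 3 treatments, against 34.3%, 33.7% and 33.1% of all tested genes. Their median log2 FCs were 0.68, 0.60 and 0.58. Of 77 tested genes for proteins of the cytosolic ribosome, 74 rose and 1 fell in each of the 3 treatments, with medians of 0.84, 0.71 and 0.68. Against these lists the members had medians of -0.03, 0.02 and -0.18 on the same scale, and no test between lists was made. The size of the rises in both lists depends on the scaling. By library size alone the median of all genes lay at -0.34, -0.32 and -0.27, against -0.01 in each by TMM. As a share of counts, the mitochondrial mRNAs went from 1.25% with DMSO to 1.6%, 1.56% and 1.53%.

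**Figure D3:**
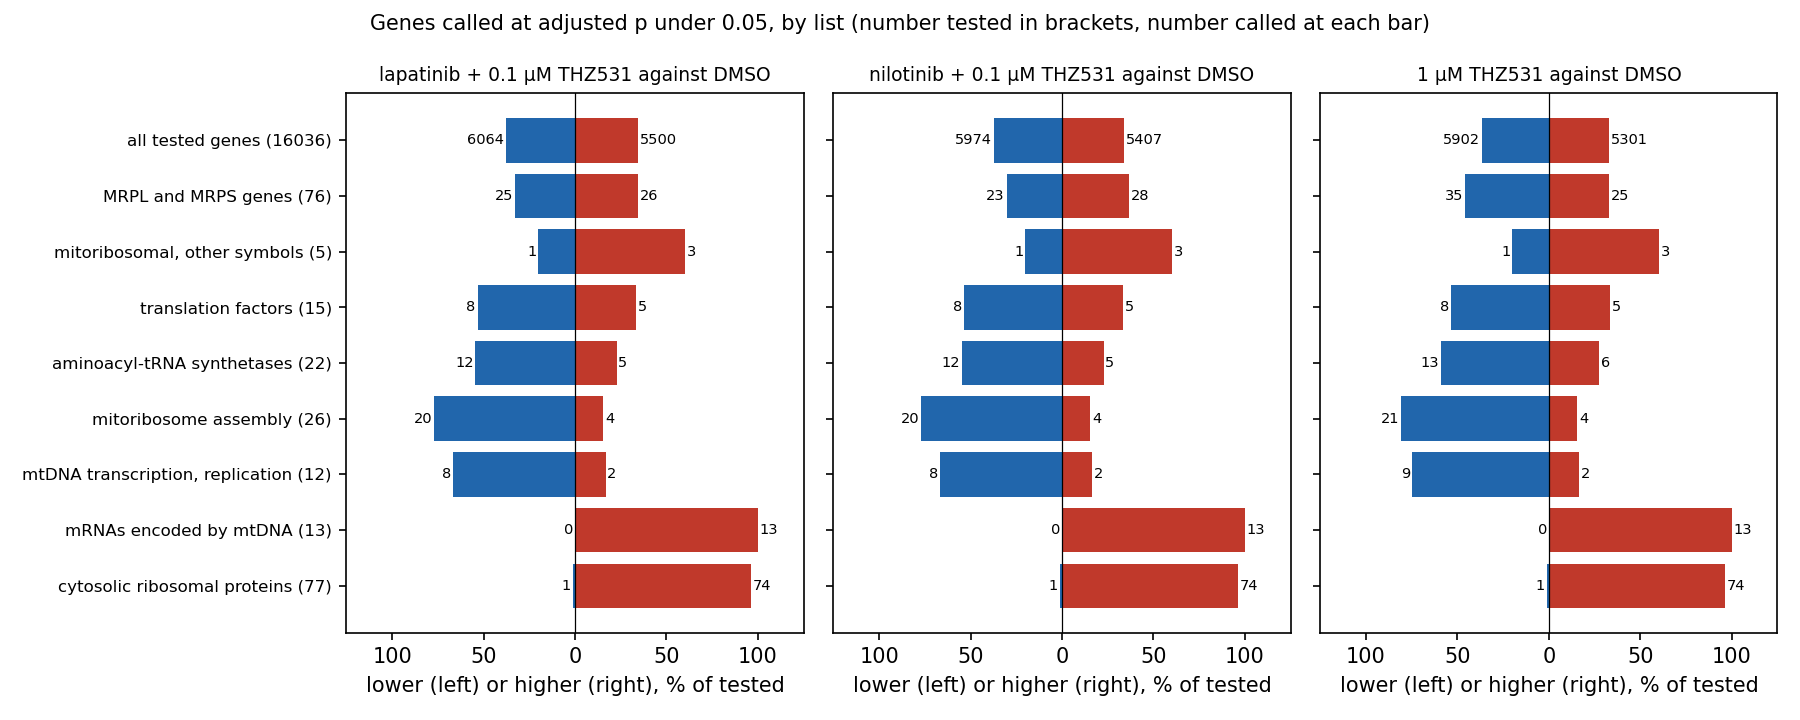
Bars show the percent of tested genes of each list called higher (red, right) or lower (blue, left) than DMSO at an adjusted p under 0.05, for both combinations and 1 µM THZ531, with the number tested in brackets and the number called beside each bar. The MRPL and MRPS genes have bars of similar length on both sides, at 26 and 25, 28 and 23, and 25 and 35 genes, the mRNAs encoded by mitochondrial DNA and the cytosolic ribosomal proteins lie almost wholly to the right, and the assembly list lies mostly to the left. The bars are from TMM scaling, and scaled to the mitochondrial mRNAs, 0, 0 and 1 of the MRPL and MRPS genes are called higher.

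Each combination was next compared with 1 µM THZ531 directly, a contrast in which DMSO has no weight, although its libraries were part of the fit. In the lapatinib combination 19 members were higher and 4 lower than at 1 µM THZ531, against 12.8% and 16.1% of all tested genes. In the nilotinib combination 20 were higher and 2 lower, against 11.2% and 13% of all tested genes. The members higher thus made up 25% and 26.3% of those tested, above the background, and the members lower 5.26% and 2.63%, below it. Fitted on only the groups compared, the counts were 9 higher and 1 lower, and 13 higher and 1 lower. One of the members lower in each contrast was MRPL45, through its single high library, and under scaling to the mitochondrial mRNAs 4 members were higher in each contrast. The share of all genes under either of these settings is not given. The excess over the background is therefore shown only for TMM with all groups fitted.

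MRPL44, a large-subunit protein related to RNase III enzymes, differed most. It was at 23.3, 22.5 and 23 CPM with DMSO, at 34.2, 37 and 36.6 CPM in the lapatinib combination, at 32.7, 34.2 and 32.6 CPM in the nilotinib combination and at 21.1, 16.7 and 22.4 CPM with 1 µM THZ531. All 6 combination libraries lay above all DMSO libraries and above the single agents, which ranged from 21.3 to 27.8 CPM. All 3 libraries of the high dose lay below the DMSO libraries but overlapped with the single agents. The difference from 1 µM THZ531 was 0.84 ± 0.09 and 0.72 ± 0.09 (edgeR adjusted p = 1.43e-06 and 7.58e-06) and ranged from 0.65 to 0.86 over both contrasts and all scalings, filters and models tried with all libraries. Against DMSO the values were 0.65, 0.53 and -0.19, the last not called (edgeR adjusted p = 0.0637), and the combinations turned to -0.04 and -0.09 under scaling to the mitochondrial mRNAs.

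MRPL34, the bL34 protein, was at 57.6, 57.1 and 62.9 CPM with DMSO, at 92.2, 89 and 85.2 CPM and at 81.8, 76.6 and 72.5 CPM in the combinations, and at 53.7, 55.1 and 62.7 CPM with 1 µM THZ531. It overlapped with DMSO only at the high dose, and the difference from that dose was 0.64 ± 0.08 and 0.43 ± 0.08 (edgeR adjusted p = 1.3e-05 and 0.000783). Against DMSO the combinations turned from 0.59 and 0.38 to -0.10 and -0.24 under scaling to the mitochondrial mRNAs. MRPS5, the uS5 protein of the small subunit, behaved alike at a smaller size, at 61.1, 61 and 60.9 CPM with DMSO, 74.8 to 79.2 and 77.6 to 78.4 CPM in the combinations and 60.3 to 63.1 CPM at the high dose, a difference of 0.32 ± 0.05 and 0.34 ± 0.05 (edgeR adjusted p = 6.99e-05 and 4.16e-05). 97.1% of its exon bases overlap another GENCODE gene, under scaling to the mitochondrial mRNAs the difference in the nilotinib combination was not called (0.27), and against DMSO both combinations turned from 0.33 and 0.35 to -0.35 and -0.27. MRPL49 went the other way, at -0.74 ± 0.10 and -0.63 ± 0.10 (edgeR adjusted p = 2.28e-05 and 0.00015).

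Further members were called lower than DMSO at 1 µM THZ531 and in neither combination. MRPS30, at 57.9, 51.7 and 57.8 CPM with DMSO, was at 48.6, 55.7 and 46.1 and at 44.2, 48.7 and 50.4 CPM in the combinations, and at 35.7, 24.5 and 36.1 CPM with 1 µM THZ531. It overlapped with DMSO in the lapatinib combination and was lowest at the high dose. Its log2 FC against DMSO was -0.15, -0.22 and -0.80 (edgeR adjusted p = 0.221, 0.0793 and 3.08e-06), and the difference from the high dose was 0.64 and 0.57 (SE 0.11, edgeR adjusted p = 0.000209 and 0.000739). MRPS2, the uS2 protein, was at 34.4, 38.8 and 33.4 CPM with DMSO, overlapped with it in both combinations, and was at 25.8, 20.5 and 28.4 CPM with 1 µM THZ531, with differences of 0.67 and 0.57 (SE 0.10, edgeR adjusted p = 2.93e-05 and 0.000182). With 0.1 µM THZ531 both genes lay above DMSO, MRPS30 at 71, 70.5 and 65 CPM and MRPS2 at 40.3, 41 and 43.7 CPM, neither called.

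MRPL39, which resembles threonyl-tRNA synthetases, MRPS22, a small-subunit protein whose mutations cause mitochondrial disease, and MRPL58, a peptidyl-tRNA hydrolase built into the large subunit, had the same order. Their log2 FCs against DMSO were -0.19, -0.07 and -0.55 for MRPL39, -0.05, 0.06 and -0.33 for MRPS22 and -0.20, -0.14 and -0.50 for MRPL58, with only the last of each passing the edgeR threshold, and that of MRPS22 not passing by upper-quartile scaling (-0.13). The differences of the combinations from 1 µM THZ531 were 0.36 and 0.48 for MRPL39 (edgeR adjusted p = 0.0046 and 0.000495) and 0.28 and 0.39 for MRPS22 (edgeR adjusted p = 0.00979 and 0.000981). For MRPL58 they were 0.30 and 0.36, of which only that of the nilotinib combination passed (edgeR adjusted p = 0.0591 and 0.0248). With 0.1 µM THZ531 MRPL39 was at 42.3, 41 and 40.7 CPM, above its 35.8, 31.9 and 37.6 CPM with DMSO. MRPS22 and MRPL58 overlapped with DMSO at that dose, and none of these genes was called there.

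**Figure D4:**
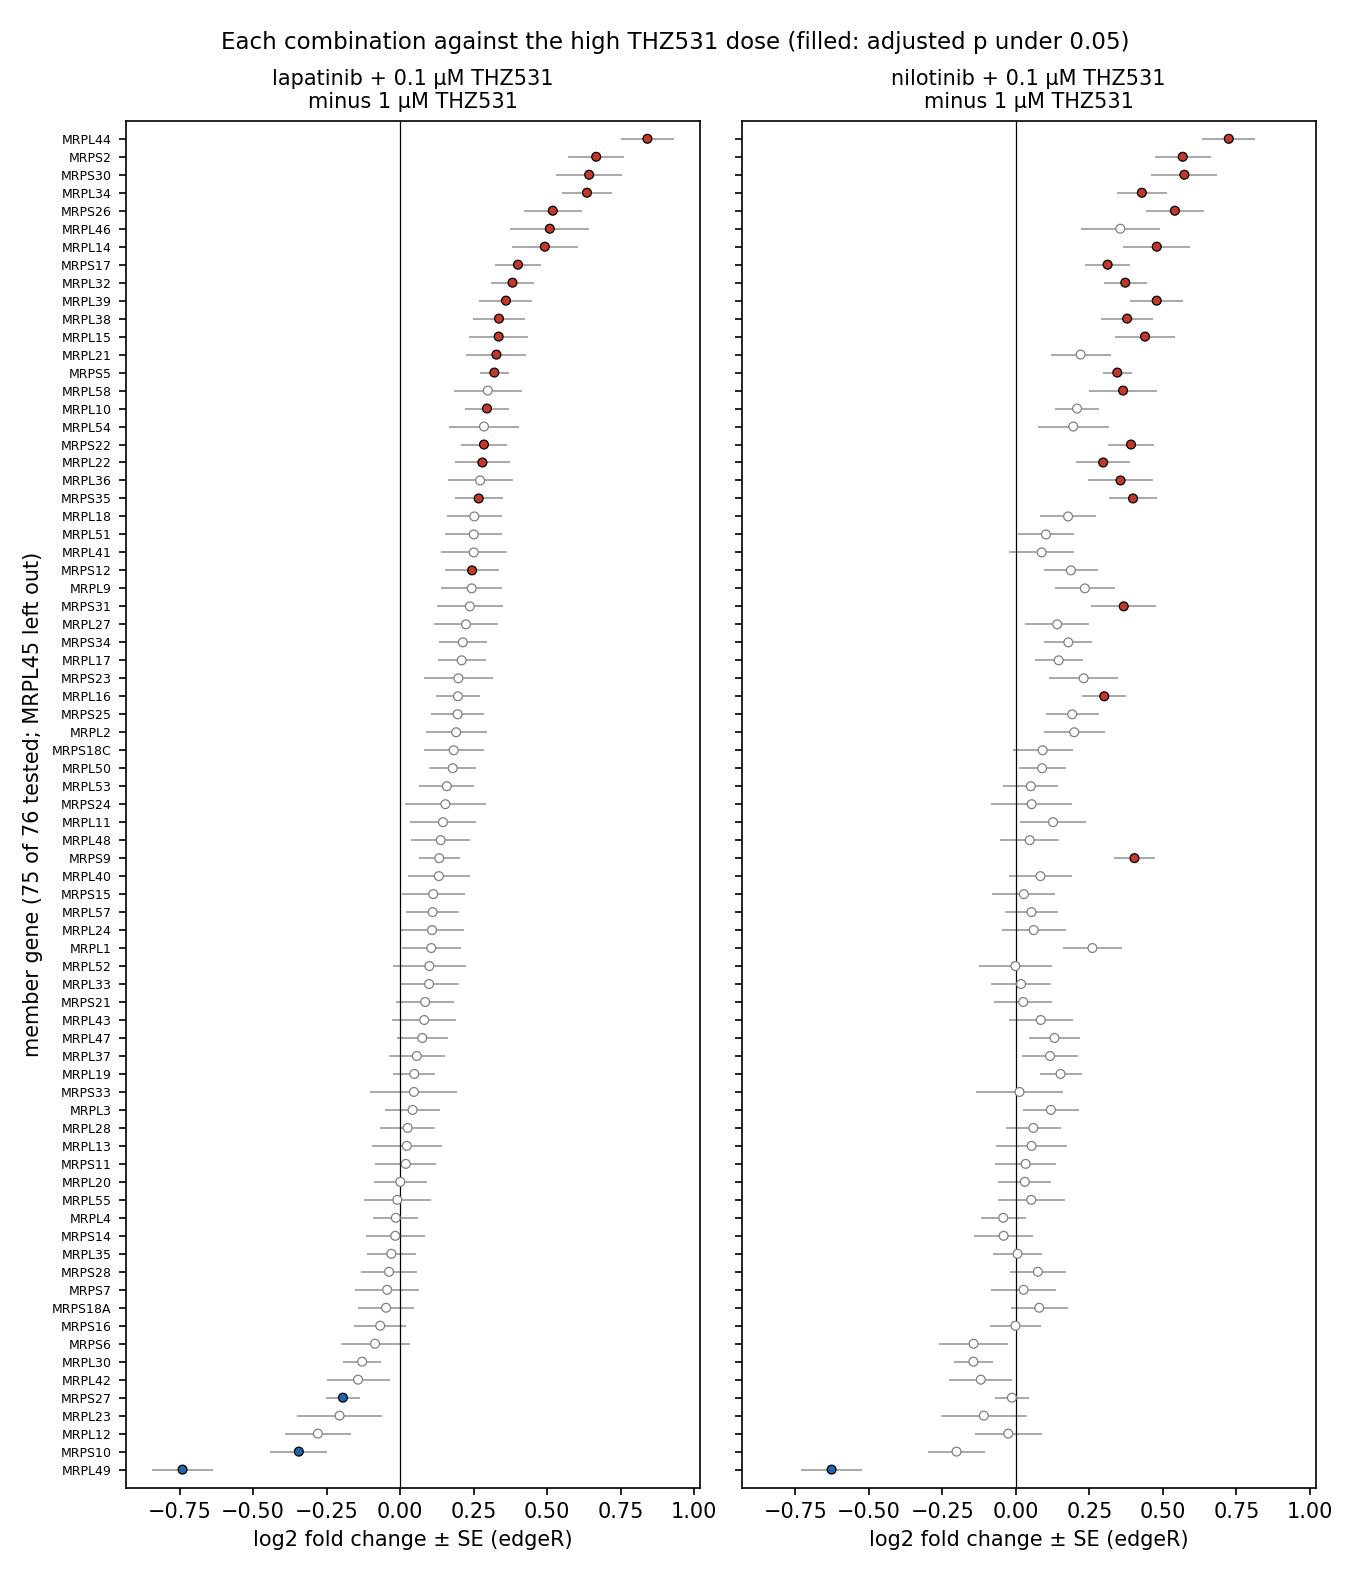
Points are the log2 fold changes (horizontal axis, with SE bars) of 75 members between the lapatinib combination and 1 µM THZ531 (left) and between the nilotinib combination and 1 µM THZ531 (right), in the order of the left panel. Filled points passed an adjusted p of 0.05, MRPL45 is left out, MRPL44 is at the top with 0.84 and 0.72, and MRPL49 is at the bottom with -0.74 and -0.63.

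Between the lapatinib and the nilotinib combination edgeR called 0 members in either direction, against 0.73% and 0.736% of all tested genes. At an unadjusted p under 0.05, 1 member was higher and 3 lower with lapatinib, and DESeq2's Wald test called 1 lower. Without MRPL45 the differences ranged from -0.27 for MRPS9 to 0.21 for MRPL34, with a median SE of 0.098. The smallest edgeR adjusted p was 0.0561, for MRPS9, a gene named here after its values were seen.

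The doses of THZ531 were also compared with each other. At 1 µM against 0.1 µM, 16 members were higher and 38 lower, against 34.3% and 35.9% of all tested genes, and the largest fall was that of MRPS31 at -2.04. By upper-quartile scaling the counts were 31 higher and 25 lower, and by the mitochondrial mRNAs 1 member was higher.

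Whether each inhibitor changed the effect of 0.1 µM THZ531 was tested with an interaction term, the effect of THZ531 beside the inhibitor minus its effect beside DMSO. With lapatinib 21 members had a higher and 25 a lower effect, against 28.2% and 32% of all tested genes, and with nilotinib 15 and 25 members, against 25.6% and 31.2%. Under scaling to the mitochondrial mRNAs 0 members had a higher effect with either inhibitor and 41 and 39 a lower one. MRPS31 had the smallest adjusted p in both, with an interaction of -1.86 ± 0.15 and -1.81 ± 0.15 on the log2 scale (edgeR adjusted p = 1.9e-09 and 2.93e-09). Alone, THZ531 at 0.1 µM, lapatinib and nilotinib had left MRPS31 at a log2 FC of -0.22, 0.05 and 0.13, none of which was called.

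Position and structure of the genes were then set beside the values. The members lie on 21 chromosomes and span 0.677 to 112 kb, with a median of 8.62 kb, against 31.2 kb for the 13745 tested protein-coding genes. Across all tested protein-coding genes the log2 FC fell with span, with a Spearman correlation of -0.15, -0.10 and -0.11 in the lapatinib combination, the nilotinib combination and 1 µM THZ531. Across the 76 members the correlation was -0.01, 0.04 and 0.06. The members' points share the same libraries and scaling, and genes are not independent replicates.

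In the lapatinib combination and at 1 µM THZ531 the members and all tested protein-coding genes, members included, lay furthest apart among the short genes. In the nilotinib combination they lay about as far apart over 50 kb as under 5 kb. Under 5 kb, 1312 protein-coding genes had median log2 FCs of 0.50, 0.37 and 0.32, whereas the 22 members of that size had medians of -0.08, -0.09 and -0.25, with values from -1.28 to 0.72 in the lapatinib combination. From 5 to 15 kb the medians were 0.08, 0.04 and 0.05 for all genes and -0.05, -0.08 and -0.24 for 29 members. From 15 to 50 kb, 18 members had medians of 0.06, 0.12 and 0.05, and the 7 members over 50 kb 0.15, 0.31 and 0.05, against -0.20, -0.14 and -0.18 for the 5027 genes of the last size. No test of these differences was made, and another scaling of the libraries shifts both medians of a size bin alike. With the length of the mature transcript the members' log2 FC had a Spearman correlation of -0.32, -0.32 and -0.25, and with their mean level of 0.39, 0.40 and 0.35 (n = 76 each).

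**Figure D5:**
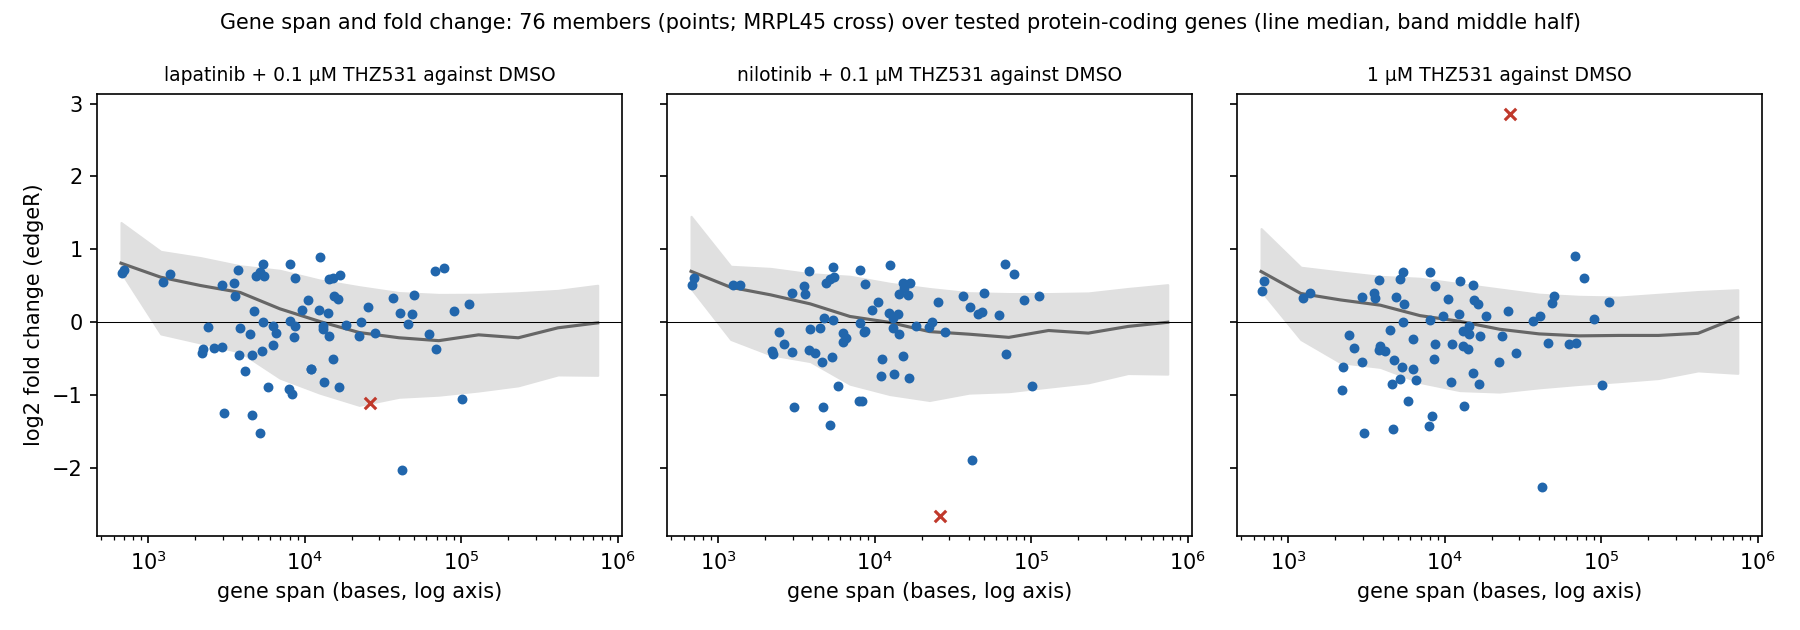
Each panel plots the log2 fold change against DMSO (vertical axis) on the annotated gene span in bases (horizontal log axis), with the 76 members as points, MRPL45 as a cross, and the median and interquartile range of the tested protein-coding genes as a line and band. The line falls from left to right, while the members scatter on both sides of it, and the short members under 5 kb lie mostly at or under it.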

How the data were processed

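RNA of Hs578T cells was sequenced as paired ends from unstranded polyA libraries. Per the submitters' processing notes, the authors used HISAT2 2.1.0, featureCounts, DESeq2 and GRCh38. The deposited values are raw counts per gene and sample, and the annotation and the handling of read pairs and overlaps are not given in the sources used here. Gene symbols came from NCBI tables and transcript lengths from GENCODE. Genes passing edgeR's filterByExpr (16036) were scaled by TMM and fitted with edgeR 4.0.16 (glmQLFit and glmQLFTest, R 4.3.3) over all 7 groups, with Benjamini-Hochberg adjustment over all genes of a comparison and a threshold of 0.05. CPM are counts scaled to TMM-corrected library sizes, and SE are of the log2 FC. The fit was tested on simulated data.

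Members and lists were chosen with earlier results of these data known. Named members were the 3 largest rises and falls per treatment past the threshold, with mean log2 CPM of at least 1 and no overlap with DMSO, the 3 highest and lowest per kilobase, a list of 16 by role, the 3 smallest adjusted p of each combination against 1 µM THZ531 and of each interaction, and members failing the filter. Examples from the other lists were picked after their values were seen. Alternatives were RLE, library-size, upper-quartile and mitochondrial mRNA scaling, centring, other filters, halved counts, only the groups compared, a replicate block, DESeq2 1.42.0 (Wald test), only members overlapping no other RefSeq gene, and leaving out each of the 21 libraries. Same-numbered libraries correlated over 0.1 in 36 of 63 pairs (range -0.84 to 0.90), with a mean of 0.15 against -0.07 for different numbers. This does not settle whether they share an experiment. The main fit did not take the numbers as pairs, and the replicate block gives the other choice. Replicates correlated at 0.99 to 0.994 (log2 CPM) and differed by more than counting noise (chi-square per degree of freedom 7.75 to 144).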

Additional observations from a re-analysis of the deposited data

Results flagged for a closer look

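The effect of 0.1 µM THZ531 on part of the mitoribosomal protein genes differed with and without each tyrosine kinase inhibitor, by edgeR's test of the interaction term. This was not particular to the family, as the shares at the end of this paragraph show. With lapatinib the effect was higher for 21 members and lower for 25, with MRPS31 at -1.86, MRPL16 at -1.23 and MRPS27 at -0.89 on the log2 scale (edgeR adjusted p = 1.9e-09, 4.82e-09 and 1.37e-08). With nilotinib it was higher for 15 members and lower for 25, with MRPS31 at -1.81, MRPL16 at -1.20 and MRPL10 at -1.19 (edgeR adjusted p = 2.93e-09, 7.82e-09 and 1.1e-08). The members with a higher effect made up 27.6% and 19.7% of those tested, against 28.2% and 25.6% of all genes, and those with a lower effect 32.9% in both, against 32% and 31.2%. The interaction terms share the DMSO and 0.1 µM THZ531 libraries and are not independent of each other. Under scaling to the mitochondrial mRNAs no member had a higher effect with either inhibitor. With nilotinib the 15 members with a higher effect became 9 on leaving out any 1 of 4 libraries.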

How the results depend on the processing

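Of the 66 values of named members past the threshold, 45 kept direction and call under scaling to the mRNAs of mitochondrial DNA, 14 lost the call and 7 turned: MRPL44 to -0.0374 (lapatinib combination) and -0.0895 (nilotinib combination), MRPL34 to -0.10 and -0.24, MRPS5 to -0.35 and -0.27, and MRPL37 to -0.34 (nilotinib combination). MRPL37 also turned to -0.03 by library size alone. That mitochondrial scaling left 0 and 54, 0 and 48, and 1 member higher in the combinations and at 1 µM THZ531, 0 lower with 0.1 µM THZ531, 4 higher in each combination against 1 µM THZ531, 1 higher between doses, 0 and 41 and 0 and 39 in the interactions, and 0 of the 80 genes of the other mitochondrial lists (partners) higher in the 3 strong treatments (19, 19 and 20 under TMM) or in 0.1 µM THZ531 or lapatinib, with 1 lower in 0.1 µM THZ531. It assumes those mRNAs constant, and the cause of the shift was not tested. By library size alone the counts were 17 and 41, 12 and 42, and 10 higher, with 1 lower between combinations, 6 higher between doses, 5 and 39 and 0 and 39 in the interactions, and 1, 6, 8 and 7 partners higher. By upper quartile, 23 fell at 1 µM THZ531, against 30.5% of all genes, and 31 and 25 differed between doses. Under the same scaling 14 were lower in the lapatinib and 24 higher in the nilotinib interaction, and 1 partner rose with 0.1 µM THZ531.

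RLE scaling left 0 lower with 0.1 µM THZ531, as did no filter (1 partner higher). With only the groups compared, 4 rose with 0.1 µM THZ531 (10 partners lower), and 9 and 1 and 13 and 1 differed between combinations and 1 µM THZ531. DESeq2 called 1 higher with 0.1 µM THZ531, 1 lower with lapatinib, 1 lower between combinations, and 6 and 1 partners higher with 0.1 µM THZ531 and nilotinib. At least 10 counts in every library gave 1 lower in the nilotinib combination against 1 µM THZ531 and 1 between combinations, and halved counts 1 between combinations. Members overlapping no other RefSeq gene numbered 15, 15 and 14 higher, 23 lower at 1 µM THZ531 and 0 lower with 0.1 µM THZ531.

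With a replicate block 1 member rose with 0.1 µM THZ531 (0 without it). All 66 named values kept their direction and call, and the counts in the other comparisons moved by at most 4, with 20 against 16 members higher between doses, 27 and 26 in the lapatinib combination, 29 higher in the nilotinib combination and 36 lower at 1 µM THZ531.

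Leaving out 1 library gave, with 0.1 µM THZ531, 0 to 1 members higher, 0 to 1 lower, 0 to 4 partners higher and 2 to 5 lower. Partners higher were 0 to 1 with lapatinib and 0 to 1 with nilotinib. Members lower numbered 1 to 6 between the lapatinib combination and 1 µM THZ531 (2 without replicate 3 of the former, 1 without replicate 2 of the latter), 1 to 3 for the nilotinib combination (1 without that replicate 2), and 0 to 1 between combinations. Members higher in the nilotinib interaction were 9 to 19 (9 without replicate 3 of DMSO, of 0.1 µM THZ531 or of nilotinib, or replicate 2 of nilotinib). MRPL45 at 1 µM THZ531 ranged from -1.32 to 3.43. The counts in the 3 strong treatments stayed within 23 to 27 higher and 22 to 28 lower, 25 to 29 and 21 to 25, and 20 to 25 and 32 to 37.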
